A study of Mus musculus with 6 samples.

Results

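Acute phase and iron-handling innate genes were followed through the first week of reprogramming of mouse embryonic fibroblasts. The 8 genes were Lbp, Saa3, Lcn2, C3, Scara5, Hp, Serpina3n and Steap4. They were chosen from earlier results on these same arrays, with the change over the week known, so the change from day 3 to day 7 is given below as a description without a test. All probe sets that the platform annotation assigns to exactly 1 of these genes were taken, each kept apart. This gave 10 probe sets for 7 of the 8 genes, out of 45037 probe sets and 18193 genes on the array. No probe set given here names C3 alone, and C3 was not analysed here.

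The fibroblasts, of the B6CBAF1/J strain, were reprogrammed with SOX2, KLF4 and an OCT4 version. One set of cells received O(5R)SK, in which OCT4 is the version labelled 5R, and the other O(WT)SK, in which OCT4 is wild type. The labels do not say what 5R stands for, how the factors were delivered or how many cultures were used. The culture medium, made for embryonic stem cells, held serum and leukemia inhibitory factor. Each combination was sampled on days 3, 5 and 7 on 1 Affymetrix array. With 6 arrays and no replicate on any day, the number of arrays limits the precision, and no spread between replicates is measured. The p-values rest on what each fit leaves over, part of which may be technical. When the combinations or days 3 and 7 are compared, this includes any change with day in the difference between combinations. When slopes are compared, it includes any departure from a straight line. Untreated fibroblasts were not analysed here.

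The acute phase response is a change in the secreted proteins of the body during infection or injury, driven largely by interleukin-6 and interleukin-1 and best known in the liver. Many of its proteins are also made outside the liver, fibroblasts and fat cells included. Part of this defence withholds iron from microbes by binding, storing or moving it. By role the genes fall into endotoxin recognition (Lbp), an apolipoprotein of inflammation (Saa3), a binder of bacterial iron carriers (Lcn2), the central complement protein (C3), a ferritin receptor (Scara5), a binder of free hemoglobin (Hp), a protease inhibitor (Serpina3n) and an endosomal metalloreductase (Steap4).

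Only 4 of the 10 probe sets were bright enough to be tested: 1 each of Lbp, Saa3, Scara5 and Steap4. The filter kept probe sets whose mean log2(intensity + 16) over all arrays lay above the 40th percentile, which corresponds to an intensity of 33.4. A dim gene can pass it through high values on some arrays only, so passing is no evidence of a change. Of these 4, Scara5 and Steap4 are iron-handling genes by the roles above. Among the 8 genes, an acute phase label could therefore rest on Lbp and Saa3 alone.

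**Figure D1:**
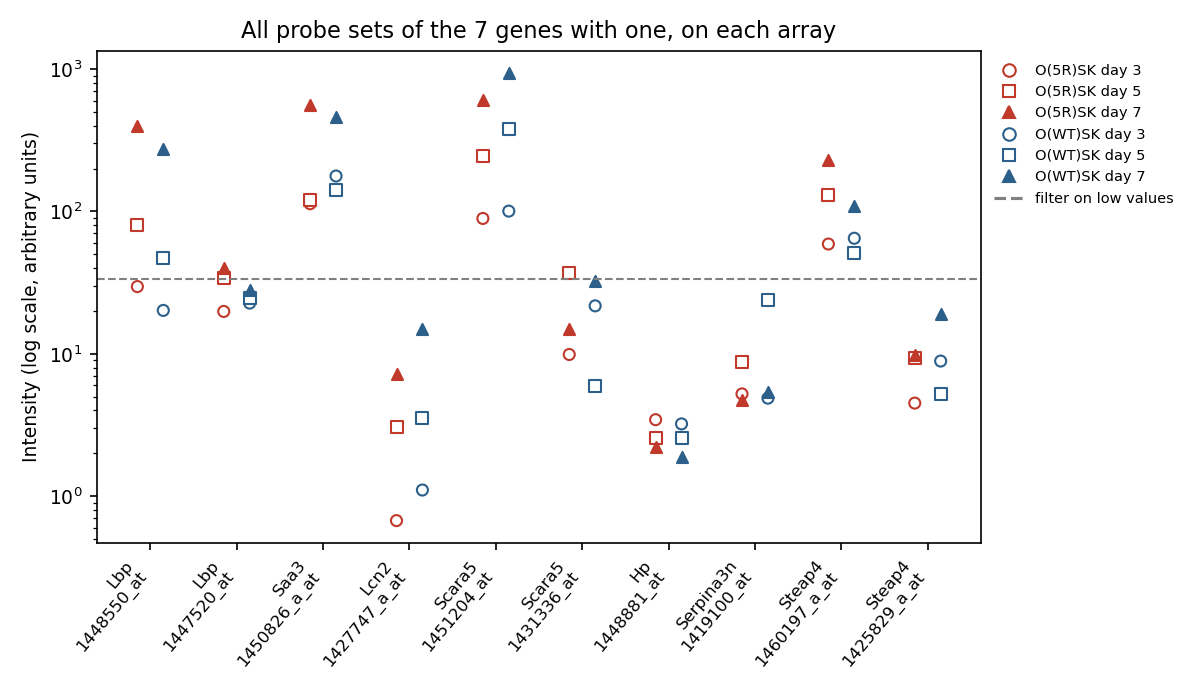
Intensity of all 10 probe sets on each of the 6 arrays (log axis). Red marks O(5R)SK and blue O(WT)SK, circles, squares and triangles mark days 3, 5 and 7, and the dashed line is the filter at an intensity of 33.4. The single sets of Lcn2, Hp and Serpina3n and the dimmer sets of Lbp, Scara5 and Steap4 lie at or below the line on most arrays.

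Promoters of 2 of the tested genes, Saa3 and Steap4, are shown because they are the tested genes found in the promoter table used. The sequences are the 250 bases before the RefSeq start (GRCm38.p6), 5′ to 3′ on the strand of the gene. Saa3 lies on the minus strand at chr7:46715677-46715926 and Steap4 on the plus strand at chr5:7960222-7960471. Capitals mark matches to motifs of factors known to act on acute phase genes, searched on both strands. These were C/EBP (TTGCNNAA), STAT (TTCNNNGAA) and the NF-kB consensus. TATAAA was searched on the strand of the gene.
Saa3: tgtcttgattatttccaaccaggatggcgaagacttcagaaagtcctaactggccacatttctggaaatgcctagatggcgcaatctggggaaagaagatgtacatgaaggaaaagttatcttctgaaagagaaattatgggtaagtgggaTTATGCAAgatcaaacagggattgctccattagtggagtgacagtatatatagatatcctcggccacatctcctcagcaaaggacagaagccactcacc
Steap4: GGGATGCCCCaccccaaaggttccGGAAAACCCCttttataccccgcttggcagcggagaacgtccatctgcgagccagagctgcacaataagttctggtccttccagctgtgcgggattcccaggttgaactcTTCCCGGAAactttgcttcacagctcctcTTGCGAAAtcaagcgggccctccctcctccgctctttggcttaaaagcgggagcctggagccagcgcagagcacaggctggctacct

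The Saa3 sequence held a C/EBP match on its minus strand, which begins 99 bases before the start. The Steap4 sequence held a C/EBP match that begins 87 bases before the start, a STAT match at 116 bases and NF-kB matches at 250 and 226 bases. None of these matches overlapped another. Among the 5 listed genes with a sequence in the table, C3 and Lcn2 also held a C/EBP match, beginning 45 and 216 bases before the start, and Serpina3n held none of the motifs. Of 32851 promoters of the same length, 9.56% held the C/EBP motif, 7.25% the NF-kB motif, 7.02% the STAT motif and 7.59% TATAAA, and 0.542% held both C/EBP and NF-kB. A match is a description of letters and not a binding site.

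Lbp encodes lipopolysaccharide-binding protein, a secreted protein that hands bacterial endotoxin to CD14 and the TLR4 receptor. Its brighter probe set (1448550_at) read 29.7, 80.3 and 398 on days 3, 5 and 7 with O(5R)SK, and 20.2, 47.1 and 275 with O(WT)SK. Both courses climbed at every step, and the later step was the larger. On the log2(intensity + 16) scale the day 7 value exceeded the day 3 value by 3.18 with O(5R)SK (9.06-fold) and by 3.01 with O(WT)SK (8.04-fold). The day 3 values lie below the filter intensity, so the size depends on the pseudocount: with 64 the differences were 2.30 and 2.01, and with 1 they were 3.70 and 3.70. The other probe set of Lbp (1447520_at) stayed dim, at 19.8, 33.9 and 40.1 with O(5R)SK and 22.7, 24.6 and 28.2 with O(WT)SK. It was also highest on day 7 in both combinations, by 0.65 and 0.19 over day 3.

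Saa3 encodes a serum amyloid A protein that in mice is made mainly outside the liver, in macrophages, fat and fibroblasts among others. Its single probe set (1450826_a_at) read 113, 120 and 558 on days 3, 5 and 7 with O(5R)SK, and 177, 140 and 462 with O(WT)SK. Saa3 was flat or lower up to day 5, and its day 7 value stood above both earlier ones in each combination. Day 7 exceeded day 5 by 2.08 with O(5R)SK and 1.61 with O(WT)SK on the log2 scale, while day 5 differed from day 3 by 0.07 and -0.31. Over the whole interval the difference was 2.15 (4.44-fold) with O(5R)SK and 1.31 (2.47-fold) with O(WT)SK. The related genes Saa1, Saa2 and Saa4 have similar sequences, and their brightest probe sets lay below the filter, with intensities up to 54.1, 36.8 and 42.6.

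Scara5 encodes a scavenger receptor of the cell surface that takes up ferritin and so delivers iron without transferrin. Its brighter probe set (1451204_at) read 89.3, 245 and 605 with O(5R)SK, and 100.5, 377 and 936 with O(WT)SK, on days 3, 5 and 7. Unlike Saa3, it stood higher by day 5 already, by 1.31 with O(5R)SK and 1.75 with O(WT)SK, with a further 1.25 and 1.28 to day 7. Day 7 exceeded day 3 by 2.56 (5.90-fold) with O(5R)SK and 3.03 (8.17-fold) with O(WT)SK. The second probe set of Scara5 (1431336_at) read 9.89, 37.1 and 14.8 with O(5R)SK and 21.7, 5.94 and 32.3 with O(WT)SK, with no shared course.

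Steap4 encodes a metalloreductase that reduces iron and copper in endosomes and is known from fat tissue and inflammation. Its brighter probe set (1460197_a_at) read 59.0, 131 and 231 on days 3, 5 and 7 with O(5R)SK, and 64.8, 51.2 and 109 with O(WT)SK. The combinations started at similar values and stood apart on days 5 and 7. Day 7 exceeded day 3 by 1.72 (3.30-fold) with O(5R)SK and by 0.63 (1.54-fold) with O(WT)SK. The dim probe set (1425829_a_at) did not share this split, at 4.51, 9.42 and 9.83 with O(5R)SK and 8.89, 5.21 and 19.0 with O(WT)SK.

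The remaining genes were near the floor. Lcn2, whose protein lipocalin-2 captures bacterial siderophores, read 0.674, 3.05 and 7.21 with O(5R)SK and 1.11, 3.55 and 14.9 with O(WT)SK. Hp, which encodes haptoglobin, read between 2.23 and 3.45 with O(5R)SK and between 1.88 and 3.22 with O(WT)SK. Serpina3n read 5.23, 8.70 and 4.75 with O(5R)SK and 4.88, 23.7 and 5.37 with O(WT)SK. Such values carry no usable level, and the probe sets of Lcn2, Hp and Serpina3n stood at percentiles 3.81, 1.01 and 10.2 of mean signal on the array.

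Of the 10 probe sets, 3 were at least 2-fold higher on day 7 than on day 3 in both combinations, those of Lbp, Saa3 and Scara5, while 1.22% of all 45037 probe sets were. Values climbed at each step in both combinations for 4 of 10, both sets of Lbp, that of Lcn2 and the brighter set of Scara5, and for 8.97% of all probe sets. Since the genes were chosen with this change known, nothing is read from these counts. The typical array median also shifted, by 0.16 with O(5R)SK and 0.04 with O(WT)SK between days 3 and 7. After shifting to a common median the day 7 values exceeded day 3 by 3.01 and 2.97 for Lbp, 1.99 and 1.27 for Saa3, 2.40 and 2.99 for Scara5, and 1.56 and 0.59 for Steap4, in each case with O(5R)SK and then O(WT)SK.

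**Figure D2:**
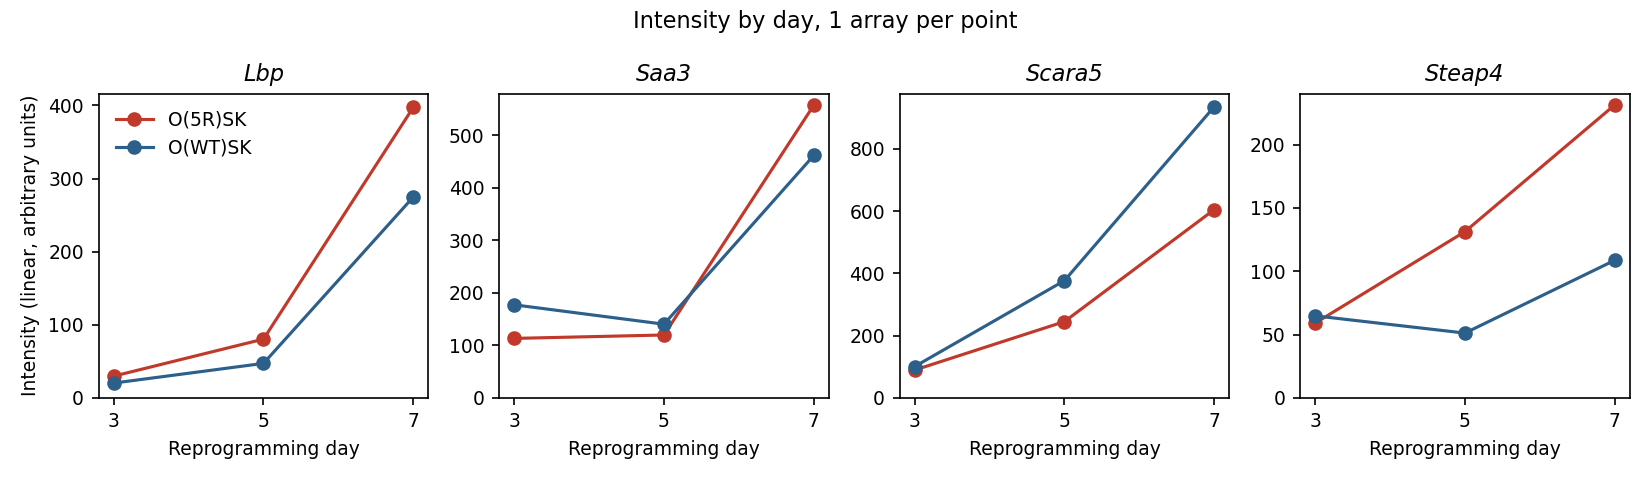
Intensity (linear axis from 0) of the 4 tested probe sets on days 3, 5 and 7, with O(5R)SK in red and O(WT)SK in blue, 1 array per point. Lbp reaches 398 and 275 and Scara5 605 and 936 on day 7, and Steap4 separates the combinations from day 5. Saa3 is level until day 5 with O(5R)SK and somewhat lower on day 5 than on day 3 with O(WT)SK.

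Setting the combinations side by side on each day asks whether the OCT4 version alters these genes. The 4 tested probe sets lay on both sides, and none passed the threshold in limma (adjusted p of 0.05). This comparison also called 0 of all 27022 probe sets tested (0%), with a smallest adjusted p of 0.435 and 2333 probe sets at an unadjusted p under 0.05. Lbp read higher with O(5R)SK on all 3 days, by 0.34, 0.61 and 0.51, a mean of 0.48 (1.40-fold, SE 0.10, adjusted p = 0.504 in limma). Scara5 read lower with O(5R)SK on all 3 days, by -0.15, -0.59 and -0.62, a mean of -0.45 (0.732-fold, SE 0.13, adjusted p = 0.546 in limma).

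Steap4 differed by a mean of 0.67 (1.59-fold, SE 0.28, adjusted p = 0.604 in limma), made of -0.11 on day 3, 1.13 on day 5 and 0.99 on day 7. With the mean of the probe sets of each gene, dim ones included, it was 0.26 for Steap4 and -0.21 for Scara5. Saa3 averaged -0.17 (SE 0.19, adjusted p = 0.7925 in limma), with -0.58 on day 3, -0.20 on day 5 and 0.26 on day 7. Without either day 3 array the Saa3 mean turned to 0.03. O(5R)SK was higher on all 3 days for 1 of 10 probe sets (Lbp), against 14.6% of all probe sets, and lower on all 3 for 2 of 10 (Scara5 and the dim set of Lcn2), against 15.2%. These shares are near the background.

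Whether the course over days 3 to 7 differed between the combinations was tested as a difference of slopes, per 4 days. With evenly spaced days the slope estimate is set by days 3 and 7, and day 5 enters the spread only. The slope was steeper with O(5R)SK by 1.10 for Steap4 (SE 0.51), by 0.84 for Saa3 (SE 1.12) and by 0.17 for Lbp (SE 0.72), and shallower for Scara5 (-0.47, SE 0.27). In limma the adjusted p-values were 0.685, 0.881, 0.964 and 0.728 in that order. No probe set of these genes or of the array passed (0 of 27022, 0%), with 2103 at an unadjusted p under 0.05.

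The rest of the pathway was described with 7 lists of acute phase, iron, complement, endotoxin, cytokine, scavenger receptor and antimicrobial genes. They held 210 further genes. The array carries 184, and 122 were tested, by the brightest probe set of each. In limma, for day 7 against day 3 over both combinations, 15 of these 122 rose and 6 fell, where 2.25% and 1.11% of all 12628 genes did. The median of the 122 was 0.16, beside 0.03 for all genes tested. As the lists were chosen with earlier results of these data known, nothing is read from these shares or medians. Between the combinations 0 of 122 passed. With a pseudocount of 1, or with no filter, 0 of these genes passed. Without any single day 3 or day 7 array 0 passed, and without either day 5 array 3 rose and 1 fell.

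**Figure D3:**
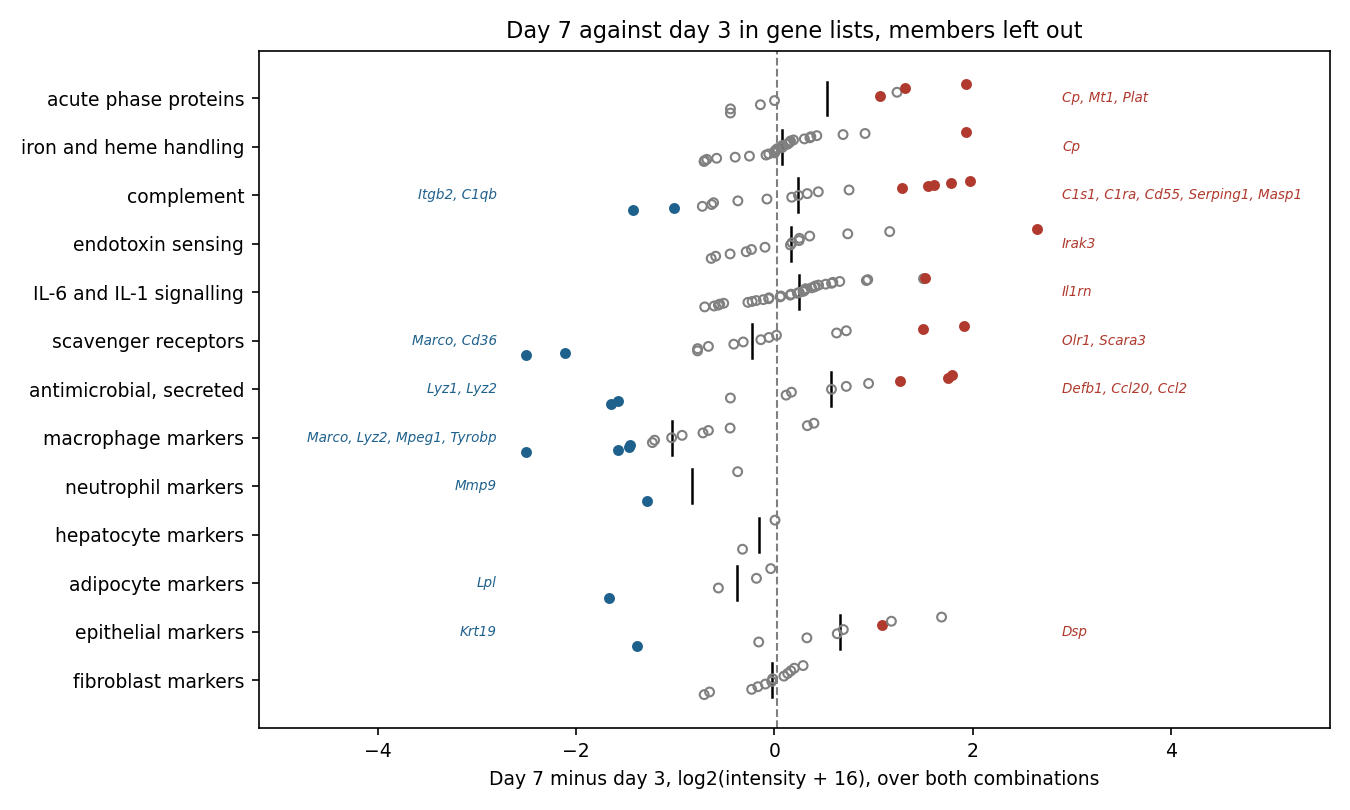
Day 7 minus day 3 on the log2(intensity + 16) scale, over both combinations, for every tested gene of the 13 lists. Filled red and blue points passed as higher and lower in limma and are named at the sides, open points did not pass, black bars are list medians and the dashed line is the median of all tested genes (0.03). Complement has 5 points passing to the right and 2 to the left, and macrophage markers have 4 to the left.

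Among 37 other acute phase genes the array carries 29, and only 8 were tested, so most of this list lay below the filter. Of these 8, 3 rose and 0 fell (median 0.53). Cp, which encodes the copper-carrying ferroxidase ceruloplasmin, read 89.9, 199.8 and 418 on days 3, 5 and 7 with O(5R)SK and 89.7, 169 and 358 with O(WT)SK. It rose by 1.93 (SE 0.12, adjusted p = 0.0253 in limma) by its brightest probe set, and by 1.14 with the mean of its probe sets (adjusted p = 0.0166 in limma). The metallothionein gene Mt1 rose by 1.32 and the plasminogen activator gene Plat by 1.06. Mt2 (1.24) and the tissue factor gene F3 (-0.44) did not pass.

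Of 38 iron and heme genes 28 were tested, and Cp, which stands in both lists, rose, with 0 falling and a median of 0.08. The ferritin heavy chain gene Fth1 differed by 0.08, and the iron chaperone gene Pcbp1 also by 0.08. No probe set names the ferritin light chain gene Ftl1 alone, so it has no value here. The transferrin receptor gene Tfrc read -0.40 (adjusted p = 0.135 in limma) and the heme oxygenase gene Hmox1 0.37 (adjusted p = 0.160 in limma). Steap1 and Steap2, relatives of Steap4, read -0.68 and -0.70 and did not pass (adjusted p = 0.0857 and 0.0589 in limma). With the mean of its probe sets Steap2 was at -0.25 (adjusted p = 0.280 in limma). Slc22a17, the proposed receptor of lipocalin-2, read 0.91 (adjusted p = 0.166 in limma).

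Among 17 tested complement genes 5 rose and 2 fell, with a median of 0.24. The 2 protease genes of the first complement component rose, C1s1 by 1.97 (SE 0.15) and C1ra by 1.78 (SE 0.14). C1s1 read 451, 738 and 1604 on days 3, 5 and 7 with O(5R)SK and 298, 663 and 1371 with O(WT)SK. The lectin pathway protease gene Masp1 rose by 1.29. So did genes that restrain the cascade, Cd55 (1.61), a decay-accelerating factor of the membrane, and Serping1 (1.55), which encodes the inhibitor of C1 proteases. The genes that fell, C1qb (-1.01) and the leukocyte integrin gene Itgb2 (-1.43), are known from macrophages. With the mean of its probe sets C1qb was at -0.67 and did not pass (adjusted p = 0.0665 in limma). Cd59a (0.33) and Cr1l (-0.08) did not pass.

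The partners of Lbp in endotoxin sensing gave 1 call among 14 tested genes. Irak3, which encodes a kinase-family inhibitor of Toll-like receptor signalling, rose by 2.64 (SE 0.11, adjusted p = 0.0253 in limma). It read 183, 463 and 1212 on days 3, 5 and 7 with O(5R)SK and 133, 358 and 929 with O(WT)SK. The receptor genes themselves did not pass, with Cd14 at -0.45, Tlr4 at 0.74 and its partner Ly96 at 0.18, nor did the kinase genes Irak1 (-0.10) and Irak2 (-0.64).

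Of 33 tested genes of interleukin-6 and interleukin-1 signalling 1 rose, Il1rn, which encodes the interleukin-1 receptor antagonist (1.52, SE 0.18, adjusted p = 0.0398 in limma). Il6 read 592, 865 and 1305 with O(5R)SK and 391.7, 1047 and 1492 with O(WT)SK over the 3 days, a difference of 1.503 between day 7 and day 3 that did not pass (adjusted p = 0.0605 in limma). Its feedback inhibitor gene Socs3 read 0.94 (adjusted p = 0.0694 in limma). Cebpd (0.31), a regulator of acute phase genes, and Nfkbia (0.31), an inhibitor of NF-kB, did not pass.

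Scavenger receptors split by 2 rises and 2 falls among 14 tested genes (median -0.23). Olr1, the receptor of oxidised lipoprotein, rose by 1.91 and Scara3, a relative of Scara5, by 1.49, while Marco and Cd36 fell. Marco read 103, 3.04 and 2.15 on days 3, 5 and 7 with O(5R)SK and 164, 46.4 and 20.5 with O(WT)SK. It passed the filter through its day 3 values and lay below 33.4 on day 7 in both combinations, so the size of its fall is set by the pseudocount, at -2.50 with 16 and -1.38 with 64. Cd36 fell by 2.11, and by 1.31 with the mean of its probe sets. Scarb2 (0.72) and Lgals3 (0.02) did not pass. Among 11 tested antimicrobial and secreted genes 3 rose and 2 fell. The defensin gene Defb1 (1.79) and the chemokine genes Ccl20 (1.75) and Ccl2 (1.26) rose, while the lysozyme gene Lyz1 fell by 1.65 and Lyz2 fell by 1.58. Ccl20 read 33.5 on day 3 with O(5R)SK, near the filter intensity, and its rise was 1.19 with a pseudocount of 64. Ptx3 (-0.44) and Ccl7 (0.12) did not pass. The lysozyme transcripts are near-identical and probes may not separate them, so these values are not independent.

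Markers of other cells were set beside these values, since Saa3, C3 and Lcn2 are also products of macrophages, neutrophils and fat cells. Of 13 tested macrophage markers 0 rose and 4 fell (Lyz2 at -1.58, Mpeg1 at -1.47, Tyrobp at -1.46 and Marco, which lay below the filter intensity on day 7), the median was -1.04 and 2 lay above 0. Marco and Lyz2 stand in the lists above too. Csf1r (-0.93) and Laptm5 (0.33) did not pass. The summed intensity of the 14 macrophage genes was 10571, 5954 and 4399 on days 3, 5 and 7 with O(5R)SK, and 10855, 6318 and 4622 with O(WT)SK. Without Lyz2 the sums were 4747, 2946 and 2525 with O(5R)SK and 4560.5, 3017 and 2450.0 with O(WT)SK. In such bulk samples fewer cells of a type and less RNA per cell cannot be told apart.

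Of 12 neutrophil markers on the array 10 lay below the filter, and Mmp9 fell (-1.28) while Elane did not pass (-0.37). Of 10 hepatocyte markers 8 lay below the filter, with sums between 202 and 273 with O(5R)SK and between 161 and 209 with O(WT)SK, and Apoh (0.01) and Hnf4a (-0.32) did not pass. Of 4 tested adipocyte markers Lpl fell (-1.67), while Fabp4 (-0.18) and Pparg (-0.04) did not pass. Of 8 tested epithelial markers Dsp rose (1.09), Krt19 fell (-1.38), and Cdh1 (1.69) and Krt18 (0.33) did not pass. The median difference of these 8 was 0.66, and 6 lay above 0. Without the filter, or with a pseudocount of 1, Mmp9, Lpl, Dsp and Krt19 did not pass either. None of the markers had an intensity of 0 on any array. The part of these cells in the courses of Lbp, Saa3, Scara5 and Steap4 was not tested.

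All 12 fibroblast markers were above the filter, and 0 passed in limma between day 7 and day 3 (Vim -0.09, Col1a2 0.10). The median was -0.02 and 5 lay above 0. The lowest were Thy1 (-0.71, adjusted p = 0.0574 in limma) and Postn (-0.65, adjusted p = 0.0716 in limma). The summed intensity of all 12 was 147208, 140631 and 123701 on days 3, 5 and 7 with O(5R)SK. With O(WT)SK it was 155522, 161002 and 167102. The brightest probe set read 34285 on the day 7 array of O(5R)SK, against 40353 to 47606 on the other arrays. The spike-in controls dap and thr had 3′/5′ ratios of 3.33 and 4.27 on the day 3 array of O(5R)SK, against 2.00 to 2.74 and 2.35 to 2.81 elsewhere. The 3′/5′ ratio of Gapdh, a gene of the cells, was level, at 0.797 on that array and 0.768 to 0.803 over all 6. Whether these bear on the values of Lbp, Saa3, Scara5 or Steap4 was not tested.

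The 4 tested genes did not share 1 course. Likeness was measured as the root mean square difference of log2 profiles over the 6 arrays, each centred on its own mean, and is given without a test. Lbp and Scara5 were nearest to each other, at 0.62, and so were Saa3 and Steap4, at 0.62, while Scara5 and Steap4 were farthest apart, at 0.96. The 8 genes nearest to the mean profile of the 4 were Fgfbp1 (0.15), Sybu (0.20), Cp (0.21), Gda (0.22), Penk (0.23), AW551984 (0.23), Pcx (0.24) and Cadm1 (0.24). The median over all 12105 genes compared was 0.93. Of these, Fgfbp1, which encodes a carrier of fibroblast growth factors, read 40.9, 92.1 and 278 with O(5R)SK and 46.3, 85.1 and 186 with O(WT)SK on days 3, 5 and 7. Penk, which encodes proenkephalin, read 157, 230 and 744 with O(5R)SK and 147, 283 and 888 with O(WT)SK.

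**Figure D4:**
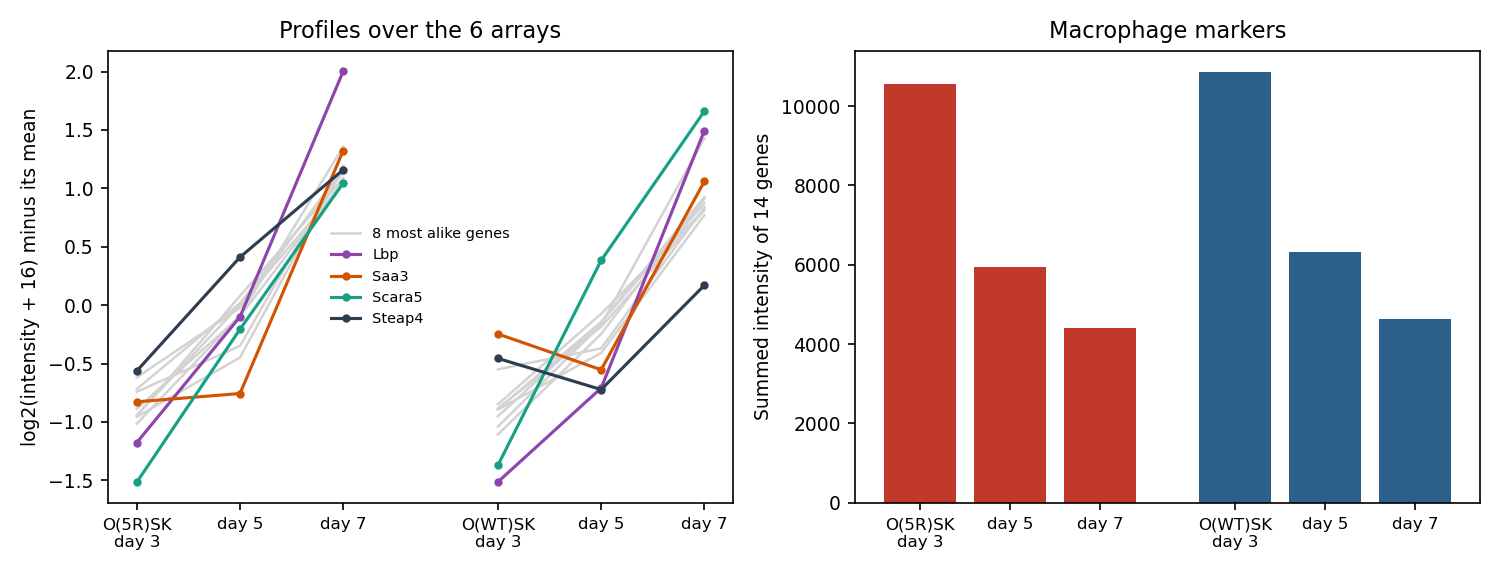
Left, log2(intensity + 16) minus its mean over the 6 arrays for Lbp, Saa3, Scara5 and Steap4 (colours) and the 8 genes nearest to their mean profile (grey), by combination and day. Right, summed intensity of 14 macrophage markers on the same arrays (red O(5R)SK, blue O(WT)SK), which is 10571 and 10855 on day 3 and 4399 and 4622 on day 7.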

How the data were processed

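The authors deposited linear intensities for each probe set, produced with affy according to the submitters' processing notes. Neither a version nor the method of summary or background correction is stated there. The 2% trimmed mean was 500 on every array, so the arrays had been scaled. Groups and days come from the labels.

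Of 45037 probe sets without the 64 controls, 34945 name 1 gene in the platform annotation, 932 name several and 9160 none. RefSeq genes (GRCm38.p6) included 34741 of the first kind and changed 0 symbols. Columns of single samples left unused numbered 0. Values were taken as log2(intensity + 16), so folds understate the change of dim genes. Probe sets with a mean above the 40th percentile were tested (27022) with limma 3.58.1 (R 4.3.3), with Benjamini-Hochberg adjustment over all of them. Combination and day (3 levels) were the terms. The slope fit took combination by day as a number. Each fit has 2 residual degrees of freedom. Figures were made with matplotlib 3.10.9 and pandas 2.3.3 under Python 3.11.15. The fit of combination and day was tested on simulated data for the combination term.

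The members and lists were chosen with earlier results of these data known. From each list the up to 4 called genes with the largest change and the 2 brightest uncalled ones are named. Masp1, Ccl2, C1qb, Itgb2, Saa1, Saa2, Saa4, Tfrc, Hmox1, Steap1, Steap2, Slc22a17, Cd14, Tlr4, Ly96, Il6 and Socs3 were named after their values were seen. So were Thy1 and Postn. Genes most like the members exclude predicted ones. Alternatives were other pseudocounts, filters, scalings, priors and probe set summaries, and leaving out each array.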

Additional observations from a re-analysis of the deposited data

Results flagged for a closer look

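For 2 of the tested probe sets the sign of the change from day 3 to day 5 differed between the combinations. Steap4 changed by 0.97 on the log2 scale with O(5R)SK and by -0.27 with O(WT)SK, a difference of 1.24. Saa3 was flat with O(5R)SK (0.07) and changed by -0.31 with O(WT)SK, a difference of 0.38. Each change rests on 1 array per side, and the day 5 difference itself was not tested. The test of slopes gives the day 5 arrays no weight in its estimate, so it does not address this step. That test did not pass for Steap4 (adjusted p = 0.685 in limma) or Saa3 (adjusted p = 0.881 in limma). The dim probe set of Steap4 moved by 0.31 with O(5R)SK and -0.23 with O(WT)SK over the same step, at intensities below 10.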

How the results depend on the processing

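The mean differences between O(5R)SK and O(WT)SK of Lbp, Saa3, Scara5 and Steap4 kept their direction and missed the threshold in limma in all 34 values from alternatives with all arrays. Their sizes did move: with the mean of the probe sets of each gene the difference was 0.26 for Steap4, -0.21 for Scara5 and 0.33 for Lbp, and the slope difference of Steap4 was 0.47 and that of Scara5 -0.29. Over these alternatives the difference ranged from 0.33 to 0.61 for Lbp, -0.21 to -0.12 for Saa3, -0.49 to -0.21 for Scara5 and 0.26 to 0.76 for Steap4. Lbp and Steap4 lay below the stricter filter and have no value there. Over all probe sets this comparison gave 2 calls with the stricter filter and 55 with a trended, robust prior, and the slope comparison 3 with that prior, none of them in these genes. Every array left out gave 0 calls in both. Leaving out an array moved the mean difference of Lbp between 0.42 and 0.56, Saa3 between -0.39 and 0.0300, Scara5 between -0.60 and -0.37 and Steap4 between 0.44 and 1.06. The slope difference of Lbp was -0.0032 with a pseudocount of 1. Slopes reversed when arrays were left out, with ranges of -1.23 to 1.57 for Lbp, -1.16 to 2.85 for Saa3, -0.95 to 0.0064 for Scara5 and -0.0636 to 2.26 for Steap4. The 3 probe sets at least 2-fold higher on day 7 in both combinations were 4 with a pseudocount of 1.

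Among the 122 list genes, calls for day 7 against day 3 (21, of which 15 higher and 6 lower) were 0 (0 and 0) without the filter and with a pseudocount of 1, 37 (23 and 14) with a pseudocount of 64, 41 (27 and 14) with the stricter filter, 49 (31 and 18) with the trended, robust prior, 39 (24 and 15) with only the brightest probe set of each of 12628 genes in the fit and 31 (21 and 10) with the mean of probe sets. The common median gave 23 (15 and 8) and quantile normalization 21 (13 and 8). With an array left out they ranged from 0 to 4 (0 to 3 higher and 0 to 1 lower). Values that reversed were those of Apoh (-0.00117 with a pseudocount of 1, -0.0917 after quantile normalization and -0.0952 at a common median), Fth1 (-0.0207), Pcbp1 (-0.0199), Lgals3 (-0.0808) and Col1a2 (-0.0052) at a common median, and Cr1l (0.15) with the mean of probe sets. With an array left out the ranges were -0.21 to 0.25 for Lgals3, -0.16 to 0.17 for Apoh, -0.52 to 0.16 for Fabp4, -0.23 to 0.16 for Pparg, -0.0575 to 0.25 for Col1a2 and -0.29 to 0.10 for Vim. None of these genes passed in limma under the settings run. The cause of these shifts was not tested. With day as a term, the fit already pairs the combinations by day. No further block by replicate number could be fitted, since each combination and day has 1 array.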
